A study of Ovis aries with 60 samples.

Results

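The comparison described here is that of the F0 sires, 10 of the 60 samples of a sheep study of paternal diet over 3 generations. The members were chosen by their labels, although earlier results of these data were known by then. They are the methionine-treated rams 3T, 5T, 9T, 11T and 23T and the control rams 4C, 6C, 10C, 12C and 24C. The other samples are 10 pools of F1 sperm and 20 F2 rams measured by bisulfite sequencing, and RNA of the 20 F2 rams. The F0 rams were Polypay males of 5 twin pairs. Within a pair 1 twin received the control diet and its brother the same diet topped with rumen-protected methionine (0.22% addition, 1.5 g) between weaning and puberty, so both groups shared the base diet. The amount is that of the labels, and the text of the study also names another, daily amount. Semen DNA of each ram was sequenced singly. The labels do not say which rams were twins. Rams with consecutive numbers (3T and 4C, 5T and 6C, 9T and 10C, 11T and 12C, 23T and 24C) are treated as pairs, since their methylation deviated together.

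DNA methylation in mammals sits mainly on cytosines followed by guanine (CG), and in mature sperm most CG cytosines outside CG-rich promoters are methylated. The methyl group comes from S-adenosylmethionine, which cells make from methionine, so the amino acid counts as a methyl donor. The sperm pattern is laid down in the male germ line before birth and is kept through the divisions of spermatogonia, which go on after weaning.

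The methylation level of a cytosine in a ram is the share of the reads covering it in which it stayed unconverted by bisulfite. The files list 313527 CG cytosines, each with at least 10 reads in every ram. The median coverage was lowest in 23T (18 reads) and highest in 4C (32 reads), and the reads on listed CG cytosines ranged from 6990542 to 11196931 per ram. Counting error is therefore large at single cytosines and small for means over classes and chromosomes, with which the comparisons begin. For windows it lies in between, and 1 window described below had only 181 reads in the ram with fewest. A level is a mean over all cells of a semen sample, so other cell types in the sample and other levels in sperm cannot be told apart. Sperm as the labelled cell type was not checked against marker genes, for want of an annotation of the build of the files.

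The mean CG level in sperm of the methionine-treated ram was below that of its partner in every pair, but the difference between the groups did not pass the test. The mean level over all listed CG cytosines was 74.7% in 3T, 72.9% in 5T, 74.7% in 9T, 73.3% in 11T and 72.8% in 23T. In the control rams it was 74.9% in 4C, 74.7% in 6C, 75.1% in 10C, 73.7% in 12C and 75.6% in 24C. The treated rams were the lower ones in 5 of 5 pairs, yet the groups overlapped, because 12C lay below 3T and 9T. The group means were 73.7% ± 0.949 for methionine and 74.8% ± 0.721 for control (SD, n = 5 each), a difference of -1.10 points (two-sided exact permutation test, p = 0.0714). Exchange within the 5 pairs gave p = 0.0625, the smallest two-sided value that an exact test on 5 pairs can give. The pairs differed widely in size. The difference was -2.77 points in the pair 23T and 24C and -1.79 points in the pair 5T and 6C, but -0.176, -0.396 and -0.338 points in the pairs of 3T, 9T and 11T. Without 23T and 24C the difference was -0.676 points (exact permutation test, p = 0.229). Taken as all methylated reads over all reads, which gives deeply covered cytosines more weight, it was -0.409 points (exact permutation test, p = 0.746). At cytosines with at least 20 reads in every ram it was -0.752 points (exact permutation test, p = 0.222).

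The CG cytosines were put into 5 classes by their mean level over all 10 rams, without regard to diet. The difference was negative in the 3 classes from 30% upwards and positive in the others, but no class passed the test, nor did the difference between classes. Taken within each ram, the class of 10% to under 30% less that of 90% and over differed between the diets by 2.67 points (exact permutation test, p = 0.460, and p = 0.125 within pairs), a contrast added after the values had been seen, which was 0.101 points without 23T. The largest class, 144515 cytosines at 90% and over, had 94.9%, 95.04%, 96.5%, 94.5% and 90.9% in 3T, 5T, 9T, 11T and 23T. The control rams had 95.8%, 95.9%, 96.5%, 95.9% and 94.0% in 4C, 6C, 10C, 12C and 24C. Every treated ram was lower than its pair partner, with differences from -0.0776 points in the pair of 9T to -3.06 points in that of 23T. The groups overlapped, since 24C lay below every treated ram other than 23T. The group difference was -1.26 points (exact permutation test, p = 0.270, adjusted over the 5 classes 0.675), and -0.398 points without 23T. Exact exchange within the pairs gave p = 0.0625 (adjusted 0.156), the smallest value it can give.

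The 64909 cytosines between 70% and 90% had the largest difference of the 5 classes. Their levels were 82.3%, 79.6%, 83.2%, 80.7% and 77.3% in 3T, 5T, 9T, 11T and 23T, against 82.9%, 82.4%, 84.5%, 81.6% and 83.5% in 4C, 6C, 10C, 12C and 24C. Again the treated ram was lower in 5 of 5 pairs, and 3T and 9T lay within the range of the control rams. The difference was -2.39 points (80.6% ± 2.33 against 83.0% ± 1.11, SD, n = 5 each), with p = 0.0714 in the exact permutation test and 0.357 after adjustment. Exact exchange within the 5 pairs gave p = 0.0625 (adjusted 0.156), the smallest value it can give. Without 23T the difference was -1.55 points.

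Below 70% the direction was no longer shared by the pairs. The 72892 cytosines between 30% and 70% had a difference of -0.569 points (exact permutation test, p = 0.738), with the treated ram lower in 3 of 5 pairs. It turned to 0.621 points without 24C and to 0.216 points without 5T, and was -1.52 points without 23T. With at least 20 reads in every ram it was -0.0615 points. At the 24324 cytosines between 10% and 30% the treated rams had 22.6%, 19.8%, 18.8%, 20.2% and 28.9% in 3T, 5T, 9T, 11T and 23T. The control rams had 21.0%, 20.9%, 18.3%, 17.9% and 25.3% in 4C, 6C, 10C, 12C and 24C. Here the treated ram was the higher in 4 of 5 pairs, and both rams of the pair 23T and 24C stood above the other 8. The difference was 1.41 points (exact permutation test, p = 0.579), and it was -0.297 points without 23T and 2.58 points without 24C. The 6887 cytosines under 10% had 3.90% ± 0.596 against 3.84% ± 0.706 (SD, n = 5 each), a difference of 0.0641 points (exact permutation test, p = 0.873). With at least 20 reads in every ram this difference was 0.299 points, and with classes taken from the F1 pools 0.355 points.

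**Figure D1:**
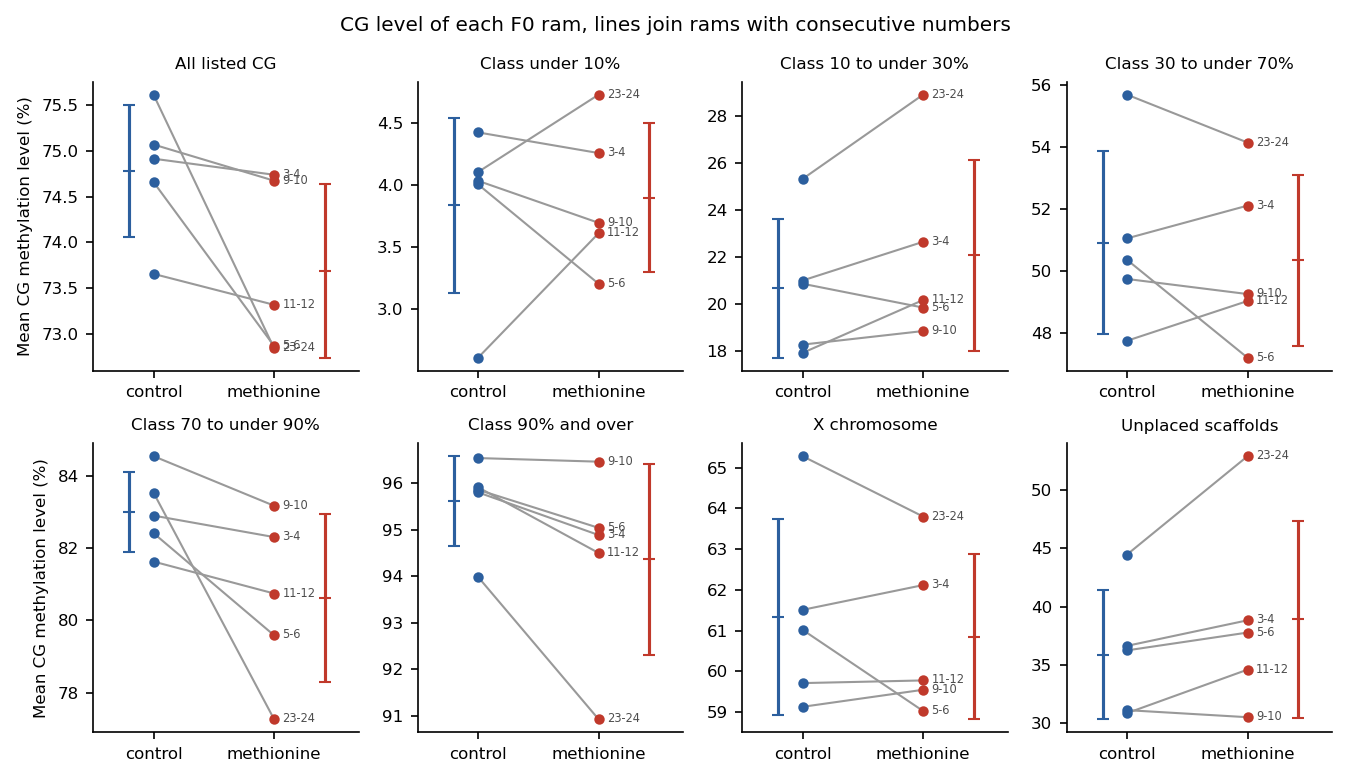
Mean CG methylation level (y axis, %) of each control (blue) and methionine-treated (red) F0 ram over all listed CG cytosines, the 5 level classes, the X chromosome and the unplaced scaffolds, with lines between rams of consecutive numbers and, beside the points, the group mean with its SD (n = 5); the y axes differ between panels and do not start at 0. All 5 lines fall in the panels of all listed CG, of 70% to under 90% and of 90% and over, whereas 4 of 5 rise in the panels of 10% to under 30% and of the unplaced scaffolds.

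A measure that does not rest on CG levels differed between the same rams. Mitochondrial DNA is present in many copies per cell, of which mature sperm keep few, and its reads come from the same libraries. The mean coverage of the 40 listed mitochondrial cytosines of all contexts was divided by that of the listed autosomal cytosines. The ratio was 3.67 in 3T, 1.81 in 5T, 0.602 in 9T, 1.80 in 11T and 6.21 in 23T. In the control rams it was 0.850 in 4C, 1.59 in 6C, 0.639 in 10C, 0.662 in 12C and 4.32 in 24C. It was therefore highest in the pair 23T and 24C, lowest in 9T and 10C, and higher in the treated ram in 4 of 5 pairs, with 1.10 ± 1.27 against 0.26 ± 1.16 on the log2 scale (SD, n = 5 each, two-sided exact permutation test, p = 0.310). This difference of 0.84 was 0.45 without 23T and 1.30 without 24C. In 9T, 10C and 12C the mitochondrial cytosines had 15.775, 16.45 and 14.65 reads on average. Listing required 10 reads in every ram, so low ratios may be set too high, which limits all values built on the ratio.

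Rams with a high ratio had low levels at 90% and over and high levels at 10% to under 30% and on the unplaced scaffolds, as the plot of levels against the ratio shows. Over the 10 rams Pearson's r was -0.86, 0.89 and 0.90 in these sets. In the other classes it was 0.51 under 10% and 0.72 at 30% to under 70%. At 70% to under 90% it was -0.54, and over all listed CG cytosines -0.20. It is given as a description with no p, since rams of a pair are not independent (23T and 24C were both high, 9T and 10C both low) and the 5 pairs are fewer than the 6 independent samples taken as the least for a correlation test. The differences within pairs, treated less control, are given side by side. The log2 ratio differed by 2.11, 0.187, -0.087, 1.45 and 0.525 in the pairs of 3T, 5T, 9T, 11T and 23T. The level at 90% and over differed by -0.916, -0.817, -0.0776, -1.41 and -3.06 points in the same order. At 10% to under 30% the differences were 1.65, -1.02, 0.579, 2.25 and 3.595 points, and on the unplaced scaffolds 2.20, 1.54, -0.609, 3.75 and 8.48 points. Pearson's r of these differences with those in the ratio was -0.12 at 90% and over. It was 0.39 at 10% to under 30% and 0.16 on the unplaced scaffolds. These are descriptions on 5 pairs, and the relation was not tested.

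With the log2 ratio as a term beside the diet in a least-squares fit over the 10 rams, the difference between the diets changed in most sets. This fit takes the rams as independent, although rams of a pair may be twins. It went from -1.26 to -0.337 ± 0.643 points (SE) at 90% and over, from 1.41 to -0.777 ± 1.16 points at 10% to under 30%, and from 3.07 to -1.36 ± 2.29 points on the unplaced scaffolds. At 70% to under 90% it went from -2.39 to -1.84 ± 1.19 points, and at 30% to under 70% from -0.569 to -2.16 ± 1.19 points. Over all listed CG cytosines it stayed close to its value without the term, at -1.10 ± 0.610 points.

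**Figure D2:**
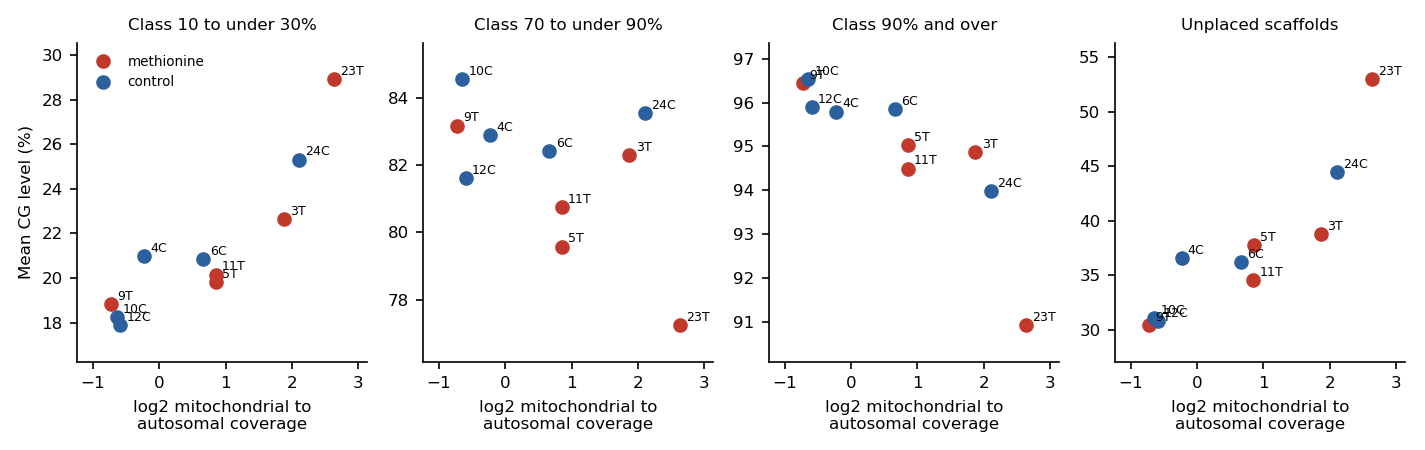
Mean CG level (y axis, %) against the log2 ratio of mitochondrial to autosomal coverage (x axis) for the 10 F0 rams, methionine in red and control in blue, in 3 level classes and on the unplaced scaffolds; the axes do not start at 0. 23T and 24C lie at the end of high ratios in each panel, with the highest levels in the class of 10% to under 30% and on unplaced scaffolds and the lowest at 90% and over.

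The lower level of the treated rams was spread over the genome. On all 26 autosomes the treatment group was lower, with differences between -0.757 points on chromosome 20 and -1.52 points on chromosome 21. All 5 pairs were lower on 13 autosomes and at least 4 pairs on 21. Chromosomes 6, 16 and 23 had the smallest p (exact permutation test, p = 0.0476, adjusted 0.205). Background, here and below, is the share of all features tested that met the stated criterion, and not a rate expected by chance. None of the 28 units tested, the 26 autosomes, the X chromosome and the unplaced scaffolds, passed an adjusted p of 0.05 (background 0%), and 3 had an unadjusted p under 0.05. The latter count rose to 18 without 9T and to 5 without 3T or 12C, and was 0 without any other ram. The chromosomes of 1 ram share a library, so the 26 autosomes are not 26 separate observations.

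The pairs shared this breadth to different degrees. 23T was lower than 24C on all 26 autosomes, with differences of -3.91 to -2.11 points, and 5T was lower than 6C on all 26, with differences of -2.54 to -1.02 points. The treated ram was lower on 17 autosomes in the pair 3T and 4C, on 22 in the pair 9T and 10C and on 21 in the pair 11T and 12C. The median autosomal differences of these 3 pairs were -0.196, -0.459 and -0.522 points.

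The X chromosome and the unplaced scaffolds were taken separately. On the X chromosome, single in males, the difference over 3005 cytosines was -0.477 points (60.9% ± 2.03 against 61.3% ± 2.41, SD, n = 5 each, exact permutation test, p = 0.738), and the treated ram was lower in 2 of 5 pairs. It was -1.21 points without 23T and 0.511 points without 24C. The unplaced scaffolds are assembled pieces that the build assigns to no chromosome, and their 9909 cytosines had the low mean level of 37.4%. The treated rams had 38.8%, 37.8%, 30.5%, 34.6% and 53.0% in 3T, 5T, 9T, 11T and 23T. The control rams had 36.6%, 36.2%, 31.1%, 30.8% and 44.5% in 4C, 6C, 10C, 12C and 24C. The treated ram was higher in 4 of 5 pairs, and 23T and 24C stood apart from the rest, as they did in the class of 10% to under 30%. The group difference was 3.07 points (exact permutation test, p = 0.556), and it turned to -0.439 points without 23T. Set against the autosomes of the same ram, the scaffolds differed between the diets by 4.31 points (exact permutation test, p = 0.452, and 0.456 points without 23T), so this test, added after the values had been seen, did not separate the scaffolds from the autosomes.

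The scaffolds held cytosines of every class. At their 3459 cytosines of 10% to under 30% the difference was 4.49 points, with the treated ram higher in 5 of 5 pairs (exact permutation test, p = 0.468). At their 5461 cytosines of 30% to under 70% it was 2.87 points (exact permutation test, p = 0.587). At their 238 cytosines of 90% and over it was -1.30 points (exact permutation test, p = 0.278), and no difference between these classes was tested. Without 23T these values were 0.260, -0.825 and -0.442 points. The 1094 autosomal cytosines with 10 or more other listed CG cytosines within 100 bases had a mean level of 37.2% and a difference of 2.31 points, with the treated ram higher in 4 of 5 pairs (exact permutation test, p = 0.563), but -0.434 points without 23T. The 155428 cytosines with no other listed one within 100 bases differed by -1.39 points, with the treated ram lower in 5 of 5 pairs (exact permutation test, p = 0.0635), and by -0.913 points without 23T.

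**Figure D3:**
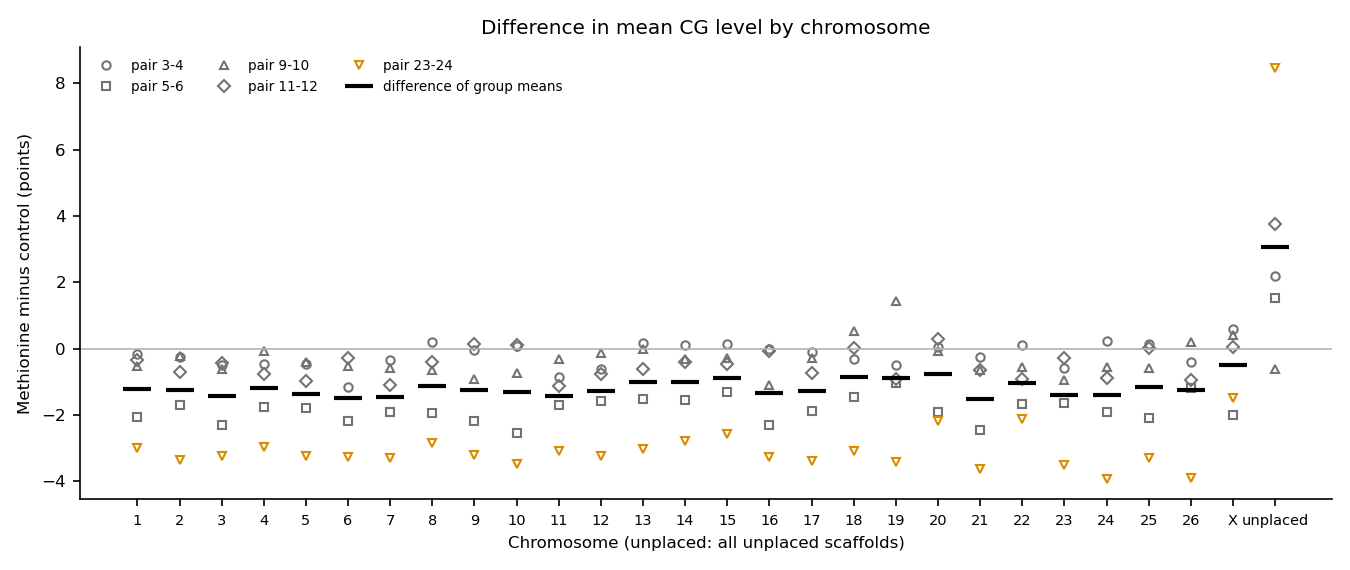
Difference in mean CG level between methionine and control (y axis, percentage points) for each autosome, the X chromosome and the unplaced scaffolds (x axis), as the difference of group means (black bar) and in each pair of consecutive numbers (open symbols, 23T and 24C in orange). The black bars lie between -1.52 and -0.757 on the autosomes and at 3.07 on the unplaced scaffolds, where the pair 23T and 24C reaches 8.48.

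To see whether the difference was concentrated in parts of the genome, the mean CG level of each ram was taken in windows of 100 kb with at least 10 listed CG cytosines, of which there were 12980. The treatment group was lower in 9524 of them (73.4%), and the median difference was -1.25 points. With cytosines of at least 20 reads in every ram it was -0.602 points over 1496 windows, 60.0% of them lower, and in windows of 10 kb -0.658 points over 3780, 59.6% lower. Without 23T it was -0.824 points, and without 23T and 24C -0.780 points. The level was lower by 5 points or more in 5.27% of the windows and higher by 5 points or more in 1.08%. The share of lower windows is given by level as a description, without a test between levels. Among the 153 windows with a mean level from 10% to under 30%, 29 were lower in the treatment group and the median difference was 1.49 points. Among the 6721 windows from 70% to under 90%, 77.0% were lower, with a median of -1.51 points. Of the 150 windows on unplaced scaffolds 21.3% were lower, with a median difference of 2.77 points. The windows of 10% to under 30% and those on scaffolds were not taken again without 23T. Over the single cytosines of this class and of the scaffolds the difference was -0.297 and -0.439 points without 23T.

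No window passed the test. In limma, fitted on the levels of the 10 rams over all windows, 0 of 12980 windows had a Benjamini-Hochberg adjusted p of at most 0.05 (background 0%), and the smallest adjusted p was 0.981. An unadjusted p under 0.05 was reached by 458 windows (background 3.53%), 427 lower (background 3.29%) and 31 higher (background 0.239%) in the treatment group. The higher ones numbered 71 without 24C and 49 without 23T. With the pairs as a block the adjusted calls stayed at 0, with 1125 windows under an unadjusted p of 0.05 (background 8.67%), 985 lower (background 7.59%) and 140 higher (background 1.08%), and a smallest adjusted p of 0.552.

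The pairs had a common direction more often downwards than upwards. The treated ram was lower in all 5 pairs at 1232 windows (background 9.49%) and higher in all 5 at 129 (background 0.994%). With at least 20 reads these shares were 7.49% and 2.34%, and in windows of 10 kb 6.53% and 2.62%. In the single pairs of 3T, 5T, 9T, 11T and 23T the treated ram was lower in 53.7%, 68.7%, 54.3%, 56.9% and 75.8% of windows. A rate expected by chance was not estimated for a common direction. Every treated ram lay below every control ram in 80 windows (background 0.616%) and above in 3 (background 0.0231%). The windows lower in all pairs had a median level of 84.4%, above the 81.0% of all windows, and 3 of them were on unplaced scaffolds. Those higher in all pairs had a median level of 54.7%, and 18 of the 129 were on unplaced scaffolds. Of all 12980 windows 150 were on unplaced scaffolds.

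Beyond this common shift the window differences of the pairs were little alike, and the part of counting error in them was not estimated. The SD of the differences over windows was 4.77 to 5.47 points within single pairs and 2.37 points for the difference of the group means. The correlation of the window differences between 2 pairs ranged from -0.060 to 0.13 over the 10 combinations of pairs, with a median of 0.023 over 12980 windows that share the 10 libraries. After the median of windows of like level had been taken from each pair, the median correlation was 0.0066. Neighbouring autosomal windows were somewhat alike, with a correlation of 0.16 for the group difference over 8009 neighbours and of 0.12 to 0.17 within single pairs.

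**Figure D4:**
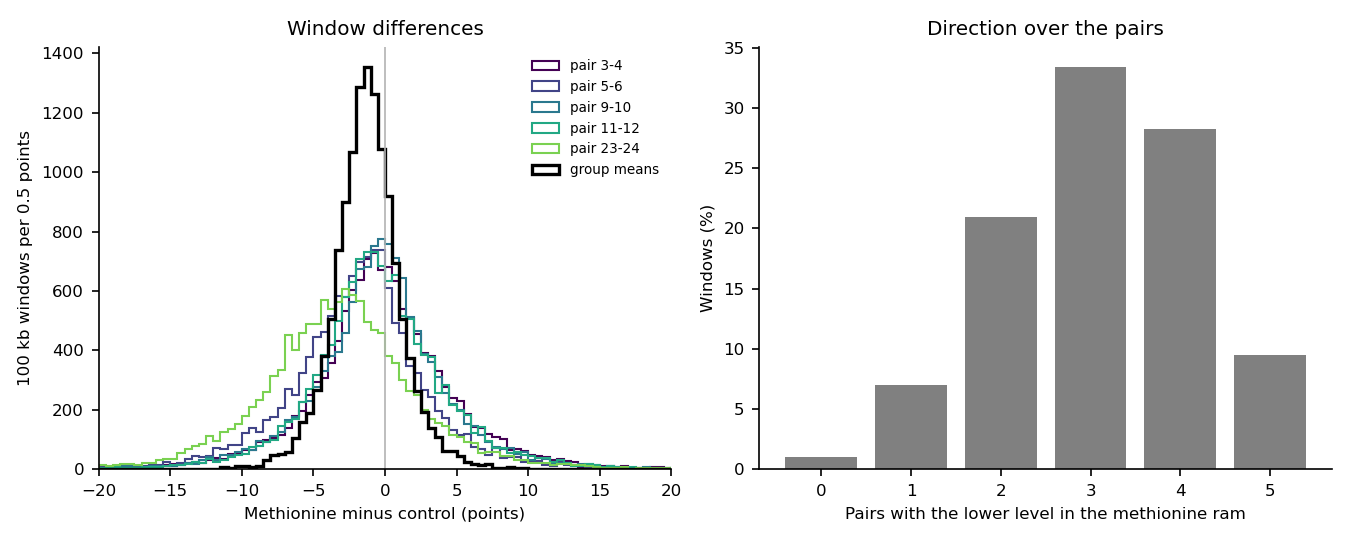
Left, number of 100 kb windows (y axis) by the difference in CG level between methionine and control (x axis, percentage points, in bins of 0.5), for each pair of consecutive numbers and for the group means (black). Right, share of the 12980 windows (y axis, %) by the number of pairs in which the methionine ram was lower (x axis); the shares run from 0.994% for no pair to 9.49% for all 5 pairs.

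The 6 windows per direction with the smallest limma p among those with all pairs in 1 direction are given here by their values. Their order of p and their common direction follow from this choice and are no further evidence. The choice also favours groups without overlap and cytosines of the same sign, so these are no further evidence either. Positions are those of Oar_rambouillet_v1.0. The window at 69600001 to 69700000 of chromosome 9 held 15 listed CG cytosines, of which 14 were lower in the treatment group. Its level was 69.9%, 70.5%, 71.9%, 64.7% and 66.5% in 3T, 5T, 9T, 11T and 23T, and 78.6%, 74.2%, 80.5%, 84.4% and 77.2% in 4C, 6C, 10C, 12C and 24C. The groups did not overlap, and the difference was -10.3 ± 2.22 points (limma SE, p = 0.000483, adjusted 0.981). None of its cytosines passed as a differentially methylated cytosine (DMC, defined with the single cytosines).

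The window at 28100001 to 28200000 of chromosome 19, with 14 cytosines, had treated rams between 64.9% (3T) and 69.0% (11T) and control rams between 72.3% (6C) and 78.8% (24C). The groups did not overlap, and the difference was -8.03 ± 1.77 points (limma SE). At 146800001 to 146900000 of chromosome 1 the 27 cytosines had 54.8% to 60.9% in treated rams and 64.4% to 71.4% in control rams, without overlap, and 22 of them were lower in the treatment group. Another window of chromosome 1, at 163300001 to 163400000, had the largest difference of those named, -11.1 ± 2.69 points (limma SE). There the treated rams ranged from 40.4% to 48.4% and the control rams from 48.3% to 62.6%, so 9T just overlapped 4C.

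The remaining 2 lower windows were highly methylated. At 103600001 to 103700000 of chromosome 5 the treated rams had 77.5% to 83.6% and the control rams 84.6% to 89.5%, but the difference within the pair 3T and 4C was -0.944 points. At 199300001 to 199400000 of chromosome 3 they had 79.6% to 86.5% and 86.4% to 93.1%, and 11T lay just above 4C. The DMCs that the study's own annotation lists in the windows of chromosomes 1 and 3 lie between genes, and some of them in LINE elements, which are retrotransposons.

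The 6 higher windows had differences from 5.25 to 8.57 points. At 34300001 to 34400000 of chromosome 23 the level was 68.6%, 66.0%, 73.0%, 75.8% and 68.3% in 3T, 5T, 9T, 11T and 23T, and 62.3%, 53.8%, 62.6%, 65.7% and 64.4% in 4C, 6C, 10C, 12C and 24C. The groups did not overlap, and the treated mean was higher by 8.57 ± 2.59 points (limma SE, p = 0.00578, adjusted 0.981), although 6 of its 12 cytosines were lower in the treatment group. At 201300001 to 201400000 of chromosome 3, 18 of 21 cytosines were higher, with 72.2% to 77.6% in treated and 62.3% to 71.2% in control rams. At 90600001 to 90700000 of chromosome 7 all 10 cytosines were higher, and 23T (67.6%) stood above the other treated rams (54.9% to 56.6%) and the control rams (46.8% to 54.7%). The windows at 225100001 to 225200000 of chromosome 1, 41700001 to 41800000 of chromosome 23 and 14400001 to 14500000 of chromosome 22 differed by 5.85, 8.26 and 5.25 points, with overlap between the groups in each.

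**Figure D5:**
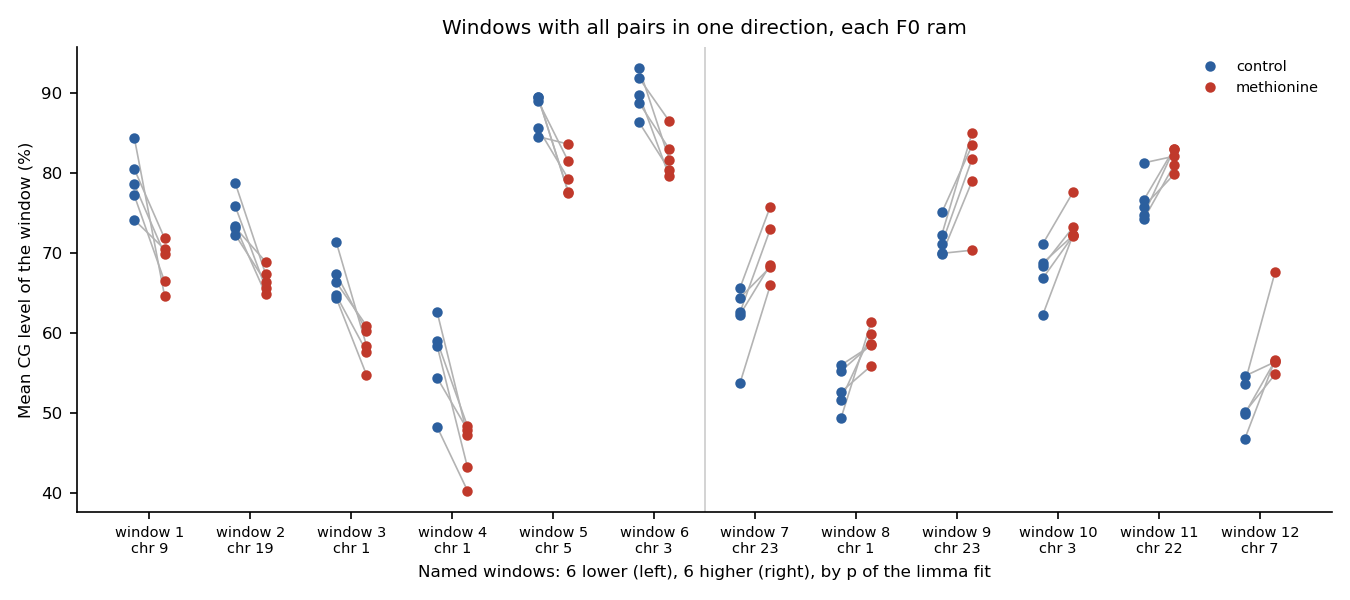
Mean CG level (y axis, %) of the 12 named windows (x axis, numbered in the order of their limma p within each direction) in each control (blue) and methionine-treated (red) ram, with lines between rams of consecutive numbers; the y axis does not start at 0. The windows were chosen for lines that all fall (1 to 6) or all rise (7 to 12), and the differences of the group means run from -11.1 to -7.73 points in the first and from 5.25 to 8.57 points in the second.

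Single cytosines were also tested, with a DMC defined by 20 points or more between the groups and a maximal adjusted p of 0.01. The likelihood-ratio test on reads summed over each group gave 5715 CG DMCs (background 1.82%), 2413 of them higher (background 0.77%) and 3302 lower (background 1.05%) in the treatment group. That test takes reads as independent and leaves out the spread between rams. With limma on the levels of the rams 0 passed, with and without the pairs as a block, and the smallest adjusted p was 0.197 and 0.302. At an unadjusted p under 0.05 with 20 points, limma without pairs had 1845 (background 0.588%) and with pairs 2888 cytosines (background 0.921%). Without the limit of 20 points, 4.11% and 5.71% of all listed CG cytosines had an unadjusted p under 0.05.

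The DMCs had a distribution of their own. They were most frequent where levels were intermediate, with 4.34% of the 72892 cytosines between 30% and 70% and 3.89% of those between 10% and 30%, and only 9 of the 144515 cytosines at 90% and over, where a difference of 20 points is hardly possible. On the unplaced scaffolds, whose mean level differed by 3.07 points, 16 of 9909 cytosines (0.161%) were DMCs, and at the 1094 densest autosomal cytosines 0.

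The levels at the DMCs were widely spread. The median SD within a group was 25.5 points in the treated and 25.6 points in the control rams, against 7.48 and 6.48 points over all listed CG cytosines. The median range of levels over the 10 rams was 88.6 points, and at 2799 DMCs (49.0%) at least 1 ram was under 10% while another was at 90% or over. In the class of 30% to under 70% this held for 68.5% of the DMCs and 12.2% of the other cytosines, although DMCs are chosen for a difference and so for a wide range. The treated and control rams differed in the called direction in all 5 pairs at 936 DMCs (16.4%), against 3.56% of all listed CG cytosines with all pairs lower and 1.52% with all pairs higher. The choice of DMCs by their group difference itself raises this share, so nothing is read from it. The median difference in the called direction was 29.4 points in the pair 3T and 4C, 30.3 in 5T and 6C, 27.8 in 9T and 10C, 14.3 in 11T and 12C and 19.6 in 23T and 24C.

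Another DMC stood within 1000 bases of 930 DMCs (16.3%), and a DMC stood within this distance of 3.72% of the other listed CG cytosines. Of the 498 neighbouring DMC couples 82.9% had the same direction. Of all listed CG neighbours within this distance 57.7% had differences of the same sign, with differences of any size counted. DMCs are chosen for a large difference, which by itself can raise such a share, so nothing is read from this comparison. Of the 25031 windows of 100 kb with any listed CG cytosine, 4062 held at least 1 DMC and 54 held 5 or more. These 54 windows held 5.42% of all DMCs. The 4 windows with most DMCs are described; a window at 85200001 to 85300000 of chromosome 8 also held 8 DMCs, among 37 listed cytosines, and came after them as having more listed cytosines.

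The window with most DMCs, at 37300001 to 37400000 of chromosome 18, had 9 among 36 listed cytosines, 8 of them higher. Its levels were 68.0%, 64.2%, 79.0%, 79.8% and 54.0% in 3T, 5T, 9T, 11T and 23T, and 67.6%, 60.8%, 60.7%, 54.7% and 58.5% in 4C, 6C, 10C, 12C and 24C. The excess came from 9T and 11T, while 23T was the lowest ram of all (difference 8.55 points, exact permutation test, p = 0.167). The DMC with its largest pooled increase, at 37345873 on the plus strand, was at 0% in 3T and 23T and at 95.7%, 96.9% and 97.8% in 5T, 9T and 11T. Its control levels were 0% in 4C, 12C and 24C, 30.2% in 6C and 42.2% in 10C, on 32 to 69 reads per ram. The likelihood-ratio test gave an adjusted p of 1.09e-23 there, and the exact permutation test over rams p = 0.167.

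On chromosome 2, at 182800001 to 182900000, 8 of 14 listed cytosines were DMCs, 3 higher and 5 lower, which the study's annotation places between genes. At 182839331 of the minus strand the treated rams had 53.3%, 39.1%, 0%, 42.9% and 0% in 3T, 5T, 9T, 11T and 23T. The control rams had 81.8%, 100%, 0%, 53.8% and 66.7% in 4C, 6C, 10C, 12C and 24C. The treated ram was lower in 4 of 5 pairs, and 9T and 10C were equal at 0% (difference -33.4 points, exact permutation test, p = 0.127). At 182851028 of the minus strand the treatment group was higher by 21.5 points (exact permutation test, p = 0.310), and by 6.74 points without 4C. The window held both directions, and its mean differed by -5.41 points, from -8.40 without 5T to -2.94 without 23T.

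The other windows held both directions as well, in unlike shares. At 12900001 to 13000000 of chromosome 12, 8 of 25 cytosines were DMCs, 4 in each direction, and the window means differed by -1.55 points (exact permutation test, p = 0.429), from -2.70 without 11T to -0.254 without 23T. Its DMC at 12914401 of the minus strand had 47.8%, 47.2%, 97.7%, 62.1% and 100% in the treated rams and 0%, 0%, 55.3%, 45.5% and 100% in their pair partners in the same order. At 77300001 to 77400000 of chromosome 7, 8 of 30 were DMCs, 7 higher. At 77366706 of the minus strand the level was 47.1%, 100%, 100%, 100% and 57.1% in the treated rams and 3.45%, 3.85%, 100%, 0% and 61.5% in their partners. The rams 9T and 10C were alike there, as were 23T and 24C, and the other 3 pairs made the difference of 47.1 points (exact permutation test, p = 0.119).

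Outside the CG context the mean levels of the groups differed by less than the SD between rams. The 2205827 CHG cytosines had a mean of 0.399% ± 0.0132 against 0.402% ± 0.0117 (SD, n = 5 each, exact permutation test, p = 0.730). The 8861888 CHH cytosines had 0.383% ± 0.0125 against 0.386% ± 0.0108 (exact permutation test, p = 0.643). Cytosines that bisulfite failed to convert count as methylated here as well. The highest CHH level was 0.402% in 6C and the lowest 0.372% in 5T, rams of the same pair.

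A small set of non-CG cytosines was methylated well above this level. A mean of 10% or more was reached by 4282 CHG (0.194%) and 17484 CHH cytosines (0.197%). At the CHH set the treated rams had 37.0%, 36.6%, 37.3%, 36.2% and 36.1% in 3T, 5T, 9T, 11T and 23T, and the control rams 37.5%, 37.3%, 37.2%, 37.6% and 37.4% in 4C, 6C, 10C, 12C and 24C. The treated ram was lower in 4 of 5 pairs, 9T being the exception, and the difference was -0.763 points (exact permutation test, p = 0.0159, adjusted over the 14 non-CG sets 0.222). At the CHG set it was -0.884 points (exact permutation test, p = 0.0794, adjusted 0.556), and -0.586 points without 24C. These sets were formed after other values had been seen. The likelihood-ratio test called 313 CHG DMCs (background 0.0142%), 144 higher (background 0.00653%) and 169 lower (background 0.00766%). It called 1282 CHH DMCs (background 0.0145%), 581 higher (background 0.00656%) and 701 lower (background 0.00791%). Of these 297 and 1226 belonged to these sets. By the same thresholds limma on the levels of the rams called 0 in either context, with 81 CHG (background 0.00367%) and 360 CHH cytosines (background 0.00406%) at an unadjusted p under 0.05 and 20 points. At an adjusted limma p of at most 0.05 and any difference there were 2 CHG (background 9.07e-05%) and 10 CHH cytosines (background 0.000113%), with a smallest adjusted p of 0.00326 and 0.00917. Of all listed CHG and CHH cytosines 0.533% and 0.512% had an unadjusted limma p under 0.05, against 4.11% in CG. Nearly all CHG and CHH levels lie near 0%, so nothing is read from these limma counts. The likelihood-ratio DMCs had the called direction in all pairs at 32 CHG (10.2%) and 146 CHH cytosines (11.4%), shares that the choice of DMCs also raises.

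The named windows were looked up in the descendants. Of the 16 windows, 13 had 10 or more listed CG cytosines in the F1 pools and 4 in the F2 rams. In F1 the difference had the sign of F0 in 6 of 6 lower windows, 1 of 3 higher windows and 4 of 4 windows rich in DMCs. Of all 12103 windows of F1, 70.2% were lower (background) and 29.8% higher in the methionine line. Nothing is read from these counts of signs, since the windows are few. In F1, 3 named windows had an exact permutation p of 0.0238 (adjusted 0.103). These were the window at 146800001 of chromosome 1 (-6.75 points), that at 199300001 of chromosome 3 (-4.01 points) and that at 182800001 of chromosome 2 (-8.01 points). In F2 the sign was that of F0 in 3 of 4 windows, with 46.2% of all 2276 windows lower and 53.8% higher, and the smallest p over 20 rams was 0.146 (permutation test with 100000 resamples, adjusted 0.349). That test takes the 2 rams of each F0 sire as independent. With them averaged by sire, which was added after the values had been seen, the smallest exact permutation p was 0.135 (adjusted 0.540). The F1 and F2 animals descend from the F0 rams, so the generations are not independent of each other.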

How the data were processed

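Semen DNA of the 10 F0 rams was measured by whole-genome bisulfite sequencing. The authors trimmed the reads with Trim Galore, aligned them with Bismark and Bowtie2 to Oar_rambouillet_v1.0, removed duplicates and deposited, for each listed cytosine and ram, counts of all, methylated and unmethylated reads. Every listed cytosine had 10 or more reads in every ram, and the 60 columns of unmethylated reads were not used.

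A level was the methylated count over the total count, and set means weight cytosines equally. Group means were compared by two-sided exact permutation tests over rams, for which the smallest possible p is 0.00794 for 5 against 5 and 0.0625 for exchange within 5 pairs, and windows by limma 3.58.1 in R 4.3.3. DMCs came from a likelihood-ratio test of counts summed by group. P-values were adjusted by Benjamini-Hochberg. Other steps used Python 3.11.15, NumPy 2.4.6, pandas 2.3.3 and SciPy 1.17.1. The scripts were tested on simulated data, as a check of the code only. Simulated reads had no spread between rams, and simulated windows were shifted by more than any named window differed. These runs therefore say nothing on false DMCs or on power at the differences seen. Whether the rams of a group count as separate replicates rests on their labels, which list 10 separate sheep.

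Consecutive numbers were taken as pairs because deviations from the group means correlated within each of the 5 pairs (0.220 to 0.342). Among the rams of the other diet, 10 of 10 rams correlated best with their consecutive number. Rams of the same diet were not candidates in this check. In the levels themselves 24C correlated slightly more with 10C (0.813) than with 23T (0.807). The pairing by consecutive numbers comes from the data, since the labels do not name the twins. Named windows were the 6 per direction with the smallest limma p among those with all 5 pairs in 1 direction, and the 4 with most DMCs, in each of which the DMC with the largest pooled difference per direction was named. Alternatives covered coverage, weighting, window size, scale, test, pairing and leaving out rams. The members and lists were chosen with earlier results of these data known. Left out were the gene-level comparison, the gene lists and the cell type markers, which need an annotation of the build of the files.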

Additional observations from a re-analysis of the deposited data

Results flagged for a closer look

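In 72 groups of 5 rams the distance of the lowest or highest ram from its nearest neighbour was set against the range of the group. It passed Dixon's limit of 0.71 in 6 of them, and chance alone puts about 1 group in 20 past it. In the class under 10%, 12C was the lowest control ram at 2.61%, with the next at 4.01%. In the class of 90% and over, 24C was the lowest control ram at 94.0%, with the next at 95.8%. In the window at 34300001 of chromosome 23, 6C was the lowest control ram at 53.8%, with the next at 62.3%. In the window at 201300001 of chromosome 3, 23T was the highest treated ram at 77.6%, with the next at 73.2%. In the window at 90600001 of chromosome 7, 23T was again the highest treated ram, at 67.6%, with the next at 56.6%. At the cytosine 37346171 of chromosome 18, 6C was the lowest control ram at 47.1%, with the next at 86.7%.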

How the results depend on the processing

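Of 436 alternative values for 38 results, 415 were graded as unchanged. For differences this means the same direction and side of the threshold, and for counts a number of similar size. Many of these values belong to named windows and cytosines, which were mostly chosen for their difference. This share is therefore no measure of stability. The values graded otherwise follow. With a difference of 25 points the CG DMCs numbered 3606, and with limma 0, as with limma and the replicate block. With at least 20 reads in every ram they numbered 1444, but only 72736 of the 313527 listed cytosines had that coverage. The share of DMCs was therefore not lower than in the main count of 5715. Limma also gave 0 CHG and 0 CHH DMCs, counts from which nothing is read. Leaving out 1 ram, which was graded as unchanged, gave 6255 (without 9T) to 7355 (without 6C) CG DMCs. The pairing as a block changed no other call, with 34 of its 35 values the same. For the means, classes, chromosomes and named cytosines this says nothing, since exchange within 5 pairs cannot give a p under 0.0625. Without the pair 23T and 24C, chosen after seeing the data, the class under 10% turned to -0.0757 points and the mean CHG level to 0.000348 points.

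Leaving out each ram in turn moved the mean CG difference between -1.38 and -0.883 points. It moved the class under 10% between -0.243 (without 12C) and 0.238 points, negative also without 3T (-0.0254) and 23T (-0.143). The class of 10% to under 30% ranged from -0.297 (without 23T) to 2.58 points (without 24C), and that of 30% to under 70% from -1.52 to 0.621 points (without 24C), positive also without 5T (0.216). The class of 70% to under 90% ranged from -3.03 to -1.55 and that of 90% and over from -1.78 to -0.398 points. The mean CHG difference ranged from -0.00706 to 0.00106 points (0.000163 without 5T) and the mean CHH difference from -0.00737 to 0.000499 points. The counts of chromosomes, of 100 kb windows and of named windows in F1 past the adjusted threshold were 0 each time.

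At 4 named cytosines leaving out 1 control ram brought the exact permutation p under 0.05, with differences of -48.5 (182839331 of chromosome 2, without 10C), -47.2 (12922229 of chromosome 12, without 24C), 63.6 (77366706 of chromosome 7, without 10C) and -46.7 points (77357358 of chromosome 7, without 10C). The causes of these changes were not tested. Only 72736 of the listed CG cytosines had at least 20 reads in every ram, so counting error limits single cytosines. The gene-level alternatives were not run.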
